A study of Mus musculus with 3 samples.

Results

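The regions described here are the BNC1 peaks that lay within 10 kb of an H3K4me3 peak in the mouse ovary. They were chosen by their measured position alone, as the peaks of the BNC1 list on chromosomes 1 to 19 and X whose edge was at most 10000 bp from the edge of the nearest H3K4me3 peak, with 0 for peaks that shared at least 1 bp. This gave 254 of the 2558 BNC1 peaks on these chromosomes, and of 2578 in the whole list. They were split by distance into 36 that overlapped H3K4me3, 53 at 1 to 1000 bp, 89 above 1 and up to 5 kb and 76 above 5 and up to 10 kb. The nearest H3K4me3 peak is called the partner. Because distance chose the regions, the counts by distance are a description, and no test was made of them.

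Whole ovaries of wild-type C57BL/6 J mice, 8 weeks old, were profiled by chromatin immunoprecipitation with sequencing (ChIP-seq) in 3 libraries. One was pulled down with an antibody to BNC1, one with an antibody to H3K4me3, and one was input DNA, of which no peak list was analysed here. With 1 library per antibody there was no replicate, so the intervals below cover counting error alone, and the reads carry no molecular identifiers that would make them independent molecules. The label of the BNC1 sample, whose title also calls it treated, names an antibody from Huaan and sonicated nuclei, that of the H3K4me3 sample Abcam ab8580. The study's methods name a BNC1 antibody from ThermoFisher and digestion with micrococcal nuclease before sonication, so it cannot be told which preparation gave the list. A whole ovary mixes oocytes, granulosa, theca and stromal cells, and a peak cannot be assigned to any of them. How many animals gave the chromatin is not stated in the labels.

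BNC1 (basonuclin 1) is a zinc finger protein of germ cells and of the basal layer of stratified epithelia, which enters the nucleus and binds DNA. H3K4me3 is trimethylation of lysine on histone H3, laid down around the start sites of active genes and over CpG-rich promoters. A transcription factor peak on or next to H3K4me3 is therefore commonly read as a candidate promoter site, and one far away as a distal site. No gene is named at the positions below, since no annotation of the mm9 build, the build in the submitters' processing notes, was used here, and for the same reason no sequence is shown.

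The tags in the lists, meaning sequenced fragments inside peaks, set how much each peak can tell. The H3K4me3 list held 617686 tags in 9929 peaks. The BNC1 list held 45704 tags in 2578 peaks, of which 14509 were in the 20 peaks on other sequences and 31195 on chromosomes 1 to 19 and X. The 254 peaks near H3K4me3 held 2764 of them. The smallest number of tags in a BNC1 peak was 8, and the median near H3K4me3 was 9, so most single peaks rest on few tags. The depth of the libraries themselves is unknown.

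To ask how far the closeness to H3K4me3 reached, the count in each distance band was set beside the count that the same peaks would give if each could sit anywhere within 1 Mb of its place, on the same chromosome and with the same width. This expected count was calculated exactly from the intervals, with no random draws, and it is no test. BNC1 peaks were most in excess on H3K4me3 itself, and none was seen at 5 to 10 kb. The 36 overlapping peaks compared with 9.35 expected, which is 3.85-fold (95% interval 2.78 to 5.31, from the Wilson interval of the share). The overlap ratio was 6.12 (3.43 to 10.8, 11 peaks) for BNC1 peaks that reached the p-value floor of the H3K4me3 list. With H3K4me3 peaks of at least the median tags it was 2.37 (1.46 to 3.83, 16 peaks). These intervals overlap each other and that of the main ratio. At 1 to 1000 bp the 53 peaks compared with 20.6, a 2.58-fold excess (1.97 to 3.36). At 1 to 5 kb the 89 peaks compared with 73.1, a ratio of 1.22 (0.992 to 1.49) whose interval includes 1. At 5 to 10 kb the 76 peaks were fewer than the 81.5 expected, a ratio of 0.932 (0.747 to 1.16). The members together, 9.93% of the BNC1 peaks against 7.22% expected, stood at 1.38-fold (1.22 to 1.55), and 89 of the 254 lay within 1 kb.

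**Figure D1:**
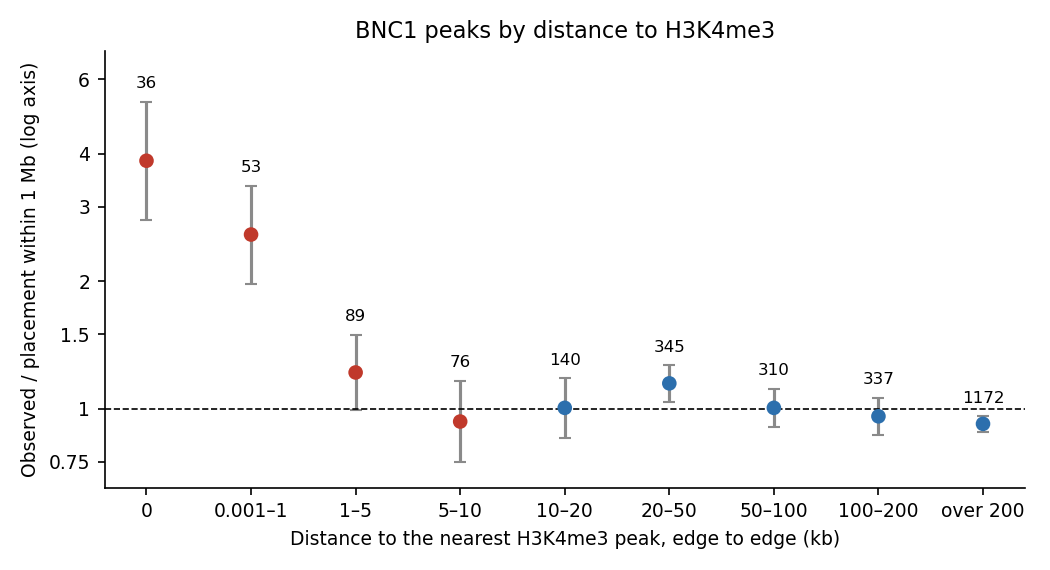
Number of BNC1 peaks in each band of edge-to-edge distance to the nearest H3K4me3 peak (kb), divided by the number expected from placement within 1 Mb (log axis). Bars are 95% Wilson intervals of the share over the expected share, the numbers on top of them are observed counts, and the dashed line marks equality. Red points are the 4 bands within 10 kb and blue points the peaks beyond. The ratio falls from 3.85 on H3K4me3 to 0.932 at 5 to 10 kb.

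Beyond the limit the ratio stayed near 1, at 1.0 for the 140 peaks at 10 to 20 kb and 1.15 (1.04 to 1.26) for the 345 peaks at 20 to 50 kb. It was lowest, at 0.921 (0.882 to 0.959), for the 1172 peaks more than 200000 bp away. In finer steps the ratio was 3.44 for the 19 peaks at 1 to 250 bp, 1.56 for 8 peaks at 251 to 500 bp, 2.62 for 26 peaks at 501 to 1000 bp and 1.15 for 22 peaks at 1 to 2 kb. It rose again to 1.57 for the 29 peaks at 2 to 3 kb and was 1.07 for 38 peaks at 3 to 5 kb. The excess was thus largest up to 1 kb from the edge, and it did not decline smoothly. Peaks lay equally on both sides of their partners, 107 at lower and 111 at higher coordinates.

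The limit itself fell between peaks of the same kind. Just inside it, a peak on chromosome 13 from 30238108 to 30238288 (9 tags) was 9825 bp from its partner, and a peak on chromosome 10 from 39462071 to 39462220 (8 tags) was 9818 bp away. Just outside it were a peak on chromosome 11 from 62703517 to 62703692 at 10048 bp and a peak on chromosome 5 from 144482457 to 144482619 at 10079 bp, each with 9 tags. All coordinates are those of the lists.

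The geometry of the 36 overlapping pairs was examined next. In 22 of them the BNC1 peak lay wholly inside the H3K4me3 peak, and in none did it enclose the partner. The shared stretch ran from 3 to 584 bp with a median of 137.5 bp. The BNC1 peak covered the partner's summit, the position of highest H3K4me3 signal, in 16 pairs, where even placement along each partner would give 10.3. The summits of both antibodies were 1 to 1219 bp apart (median 154 bp), and 15 pairs had them within 100 bp. As a share of the largest offset at which the peaks still touch, the centres were 0.320 apart at the median, against 0.5 under even placement. At the median, BNC1 peaks that touched H3K4me3 therefore sat nearer its middle than even placement would give. No interval was calculated for the count over the summit. Among partners wider than 1000 bp, only that on chromosome 15 from 78938581 to 78940423 had its summit covered.

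**Figure D2:**
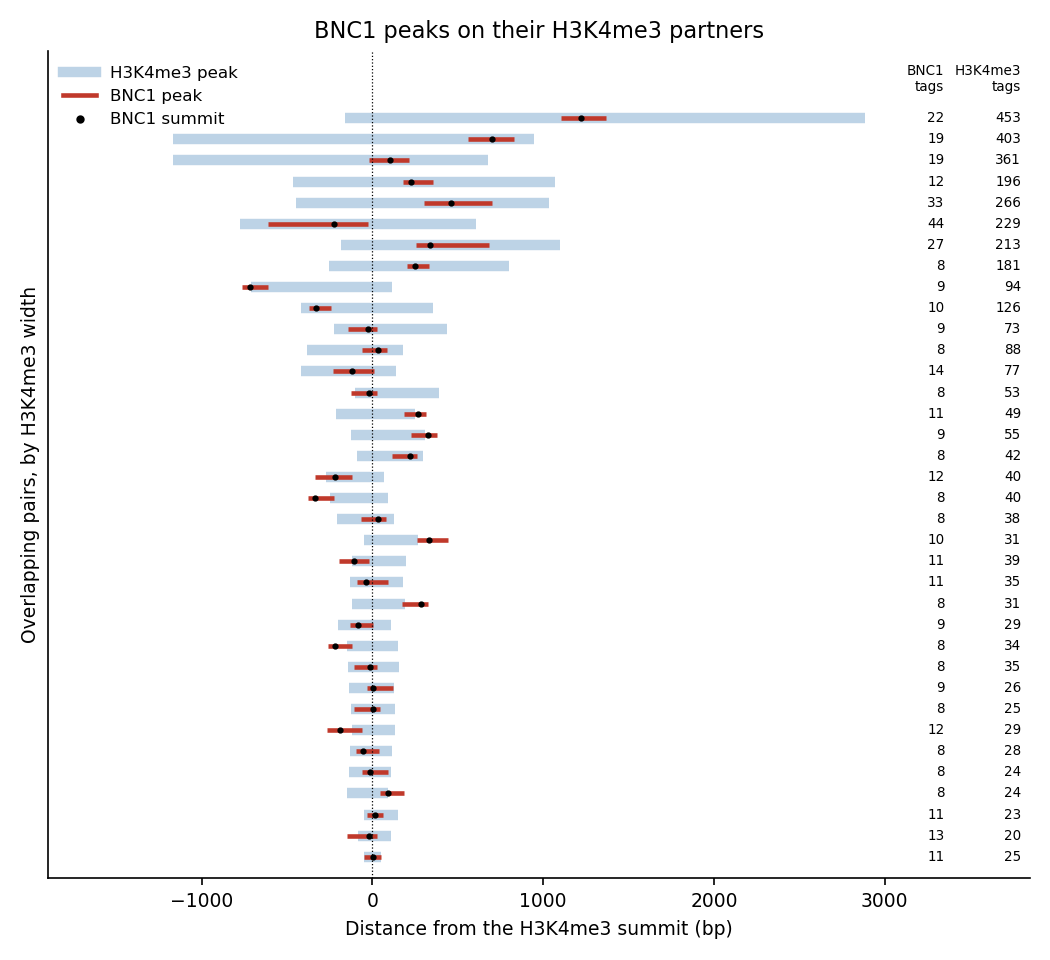
Each row is 1 of the 36 overlapping pairs, ordered by the width of the H3K4me3 peak, and the horizontal axis is the distance from the H3K4me3 summit (bp). Blue bars are H3K4me3 peaks, red bars BNC1 peaks and dots BNC1 summits, with the tags of each at the right. The 16 BNC1 peaks that cross the dotted line cover the partner's summit, and all 6 BNC1 peaks with more than 14 tags sit in the 8 widest partners.

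Overlapping pairs were split by the width of the partner at 1000 bp, a limit set for description. In 8 pairs (22.2%) the H3K4me3 peak was wider than 1000 bp, as were 5.38% of the H3K4me3 list and 23.5% under placement, with 181 to 453 tags, and the BNC1 peak had 8 to 44 tags (median 20.5) at a median fold enrichment of 5.55 over the caller's local background. In the other 28 the H3K4me3 peak had 20 to 126 tags, and the BNC1 peak had 8 to 14 tags (median 9) at a median fold enrichment of 8.42. The tag ranges of the BNC1 peaks overlap, but all 6 with more than 14 tags were on wide partners. Of the 8 wide pairs, 5 were on chromosomes 9 and 15, against 3 of the 28 others.

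The 4 overlapping BNC1 peaks with most tags all had partners wider than 1000 bp. The highest, on chromosome 9 from 13257637 to 13258220, held 44 tags at 4.24-fold inside an H3K4me3 peak of 1379 bp and 229 tags. A peak on the same chromosome from 14079652 to 14080052 held 33 tags at 4.48-fold inside an H3K4me3 peak of 1482 bp and 266 tags. Another on that chromosome, from 34925011 to 34925436, held 27 tags at 4.34-fold in a partner of 213 tags. All 4 peaks were below the median fold enrichment of the BNC1 list, 8.37. The fourth, on chromosome 15 from 56665454 to 56665722, held 22 tags at 6.72-fold, and its partner was the widest and most tag-rich of all, with 3047 bp and 453 tags. The summits there were 1219 bp apart, the largest gap in the group.

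Partners with most tags after that one were on chromosome 4 from 62179749 to 62181863 (403 tags) and on chromosome 15 from 78938581 to 78940423 (361 tags), each overlapped by a BNC1 peak of 19 tags. Next came an H3K4me3 peak of 330 tags on chromosome 9 from 37295806 to 37297669, with a BNC1 peak of 14 tags 2305 bp away. Only the chromosome 15 pair of these had its BNC1 peak, from 78939729 to 78939961, over the H3K4me3 summit.

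The other pairs with the BNC1 peak on the summit had fewer tags on both sides than the chromosome 15 pair. On chromosome 1 from 172949537 to 172949774, a BNC1 peak of 14 tags (8.47-fold) covered the summit of a 77-tag H3K4me3 peak. On chromosome 5 from 107508261 to 107508442, a BNC1 peak of 13 tags (11.71-fold) met a partner of 195 bp and 20 tags. Next were 3 BNC1 peaks that tied at 11 tags, and their fold enrichments ranged widely. The peak on chromosome 1 from 12634846 to 12634937 had an 18.41-fold enrichment, with the partner at 23 tags, 12.15-fold and a summit 13 bp away. On chromosome 15 from 5489033 to 5489215 it was 5.6-fold, with a partner of 35 tags at 6.69-fold. On chromosome 8 from 19702431 to 19702528 it was 10.87-fold, with a partner of 25 tags at 11.34-fold. That partner, from 19702430 to 19702527, was nearly the same interval as the BNC1 peak, and the summits were 1 bp apart. At 98 bp it was the narrowest of all partners of members. It also had the highest density, 255 tags per kb, where the H3K4me3 list had a median of 117.

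At the median, the H3K4me3 peaks that BNC1 overlapped were narrower, with fewer tags but higher fold enrichment, than the ones placement would reach. Wide peaks offer more room, and placement within 1 Mb would touch partners with a median width of 533 bp and 67 tags, whereas the observed partners had a median width of 340.5 bp (interquartile range 288 to 784 bp) and 40 tags (29 to 102). Partners wider than the list median of 388 bp made up 44.4% (29.5 to 60.4%), where placement gave 71.0% and the list 49.7%. Their median fold enrichment was 8.27, against 6.79 under placement and 7.28 in the whole H3K4me3 list. By quartile of width, H3K4me3 peaks of up to 297 bp were overlapped by 10 BNC1 peaks where 1.16 were expected (8.62-fold), and those of 538 bp or more by 13 where 4.63 were expected (2.81-fold). By quartile of fold enrichment, the 15 peaks overlapping the highest quartile (8.46 or more) compared with 1.72 expected (8.70-fold), and the 9 overlapping the lowest with 3.53 (2.55-fold). The quartiles between did not follow a steady trend. The third quartile of width was lowest, with 4 peaks (1.97-fold), after 5.87-fold in the second, and the second quartile of fold enrichment, also 4 peaks (1.82-fold), lay below the lowest, while the third stood at 4.21-fold. By quartile of tags, H3K4me3 peaks of up to 33 tags were overlapped by 12 BNC1 peaks where 1.13 were expected (10.7-fold). The ratio was 5.12 in the second quartile of tags (8 peaks), 1.48 in the third (3 peaks) and 2.80 in the highest (13 peaks). All these ratios rest on 3 to 15 peaks each.

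**Figure D3:**
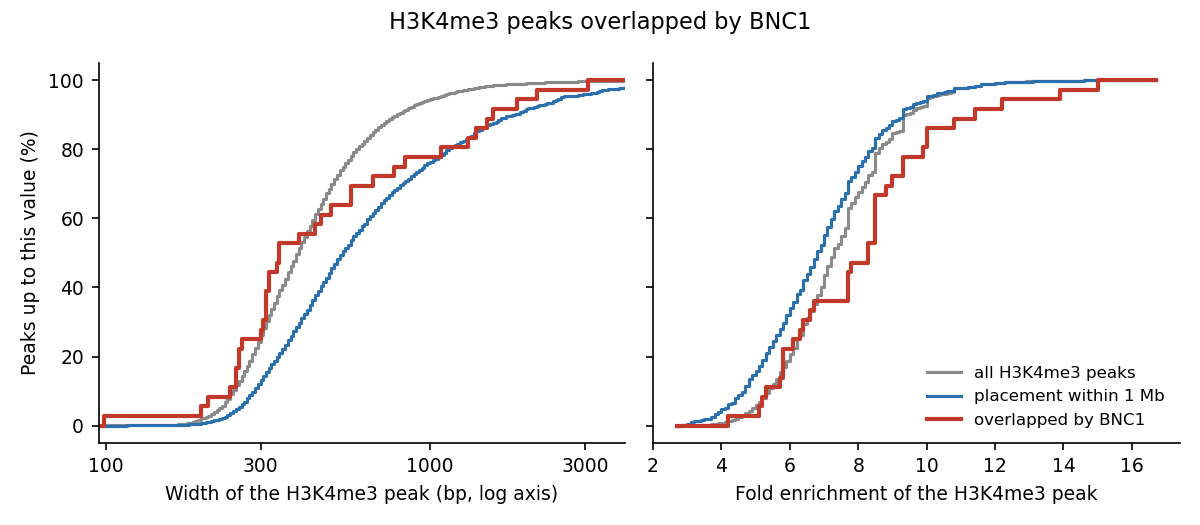
Share of H3K4me3 peaks (%) up to a given width (left, bp, log axis) or fold enrichment (right). Red is the 36 H3K4me3 partners overlapped by BNC1, blue the partners that placement within 1 Mb would give and grey the whole H3K4me3 list. The red curve lies left of the blue one for width up to about 1000 bp, with medians of 340.5 and 533 bp, and right of it for fold enrichment, with medians of 8.27 and 6.79.

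Away from the overlap the median widths and tags of the partners were near those expected from placement, but wide and tag-rich partners were few at 1 to 1000 bp. At 1 to 1000 bp the partners had a median width of 372 bp and 45 tags, and at 5 to 10 kb 412 bp and 46.5 tags, against 405 and 396 bp and 48 and 46 tags under placement. Over all members, 127 of 254 partners, or 50% (43.9 to 56.1%), were wider than the H3K4me3 median of 388 bp, as were 49.7% of the whole list and 53.2% under placement. The same number, 127, had more tags than the H3K4me3 median of 45, beside 49.4% of the list and 52.9% under placement. Neither width nor tags of the partners as a whole set them apart. None of the 53 partners at 1 to 1000 bp was wider than 1000 bp, where placement would give 8.23%, and 0 of 53 allows a share of up to 6.76% (Wilson interval). Only 1 of these 53 had more than 100 tags (1.89%, up to 9.94%), where placement would give 14.5% and the list 11.2%.

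Fold enrichment of the partner lay above placement in every band. Of all members, 152 of 254 partners, or 59.8% (53.7 to 65.7%), were above the H3K4me3 median, compared with 47.7% under placement and 49.5% of the list. The share was 63.9% for overlapping peaks, 62.3% at 1 to 1000 bp, 59.6% at 1 to 5 kb and 56.6% at 5 to 10 kb, where placement gave 38.4, 46.0, 47.8 and 49.1%. At 5 to 10 kb the interval of the share, 45.4 to 67.1%, included the value under placement. The background index of the partners is the density of tags (per kb) over the fold enrichment, so at equal density it falls as fold enrichment rises. It was lower than under placement, with a median of 15.2 against 16.3. Its part in the result was not tested.

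H3K4me3 often came in clusters of adjacent peaks, and the partners of BNC1 peaks were clustered less often than the H3K4me3 list as a whole. In the H3K4me3 list, 48.9% of peaks had another within 5 kb, whereas 69 of 254 partners did, or 27.2% (22.1 to 32.9%). Placement gave 31.4%, inside that interval, so most of the gap to the list was also present under placement. With other limits for a cluster the share of members was 41.3% (another H3K4me3 peak within 20 kb, 62.5% of the list) or 7.87% (H3K4me3 peaks within 1 kb merged first, 15.8% of the merged list). Placement was not calculated with these limits. Overlapping peaks had a clustered partner in 13 of 36 cases (36.1%, 22.5 to 52.4%) against 52.4% under placement, and peaks at 1 to 5 kb in 15 of 89 (16.9%, 10.5 to 26.0%) against 30.1%. At 5 to 10 kb the share was 31.6%, beside 28.8%. Counted against expectation, isolated H3K4me3 peaks were overlapped 5.17-fold (23 peaks, 4.45 expected) and clustered ones 2.65-fold (13 peaks, 4.90 expected). The gap from a partner to the next H3K4me3 peak had a median of 31.1 kb for members, 22.8 kb under placement and 5.84 kb in the list.

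Most members had a single H3K4me3 peak in reach. In 183 of 254 (72.0%) there was 1 H3K4me3 peak within 10 kb, 71 had 2 or more, and 6 was the largest number. In 14 cases H3K4me3 lay within 10 kb on both sides. The rule required at least 1, and placement was not calculated for these counts, so they need not set members apart. Members rarely came in groups, since 10 of 254 (3.94%, 2.15 to 7.09%) had another BNC1 peak within 10 kb, beside 5.21% of the BNC1 peaks farther from H3K4me3. The 254 members had 250 partners, 4 of which served 2 BNC1 peaks each, so nearly all pairs were separate places. One shared partner, on chromosome 15 from 34424127 to 34425557 with 220 tags, had BNC1 peaks of 12 and 11 tags at 2050 and 8862 bp.

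Tags in the BNC1 peaks, which the distance rule did not use, were slightly more numerous near H3K4me3. More than 8 tags were found in 155 of 254 members, or 61.0% (54.9 to 66.8%), compared with 46.7% (44.7 to 48.7%) of the 2304 peaks beyond 10 kb and 48.1% of all. The share did not follow distance within the members. It was 63.9% for overlapping peaks, 56.6% at 1 to 1000 bp, 62.9% at 1 to 5 kb and 60.5% at 5 to 10 kb, and beyond the limit 53.6% (45.3 to 61.6%) at 10 to 20 kb and 46.3% farther out. If members had the shares of the distant peaks on their own chromosomes, 48.0% would be expected. Without chromosomes 9 and 15, which hold many tag-rich peaks, the shares were 56.1% (49.3 to 62.7%) for members and 42.0% for distant peaks.

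Peaks well above the smallest number of tags were unevenly spread over the chromosomes. More than 10 tags were held by 52 members, or 20.5% (Wilson interval from just under 16 to 25.9%), beside 14.9% of all BNC1 peaks and 14.3% of those beyond 10 kb, and 26 of these 52 were on chromosomes 9 and 15, which together hold 49 members. Without these chromosomes the share was 12.7% (8.80 to 17.9%), and 8.68% for distant peaks. The neighbouring peaks at 10 to 20 kb had much the same share as the members, 19.3% (13.6 to 26.6%), or 14.8% (9.54 to 22.1%) without these chromosomes. Of the 18 members with more than 15 tags (7.09%, beside 4.96% of all BNC1 peaks), 10 were on chromosome 15 and 6 on chromosome 9, and of the 109 such peaks beyond 10 kb, 81 were on these chromosomes. Overlapping peaks stood highest, with more than 10 tags in 16 of 36 (44.4%, 29.5 to 60.4%), or 10 of 28 (35.7%, 20.7 to 54.2%) without these chromosomes, whereas at 1 to 1000 bp it was 6 of 53 (11.3%, 5.29 to 22.6%). The intervals of these bands do not overlap with all chromosomes, but do so narrowly without them.

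**Figure D4:**
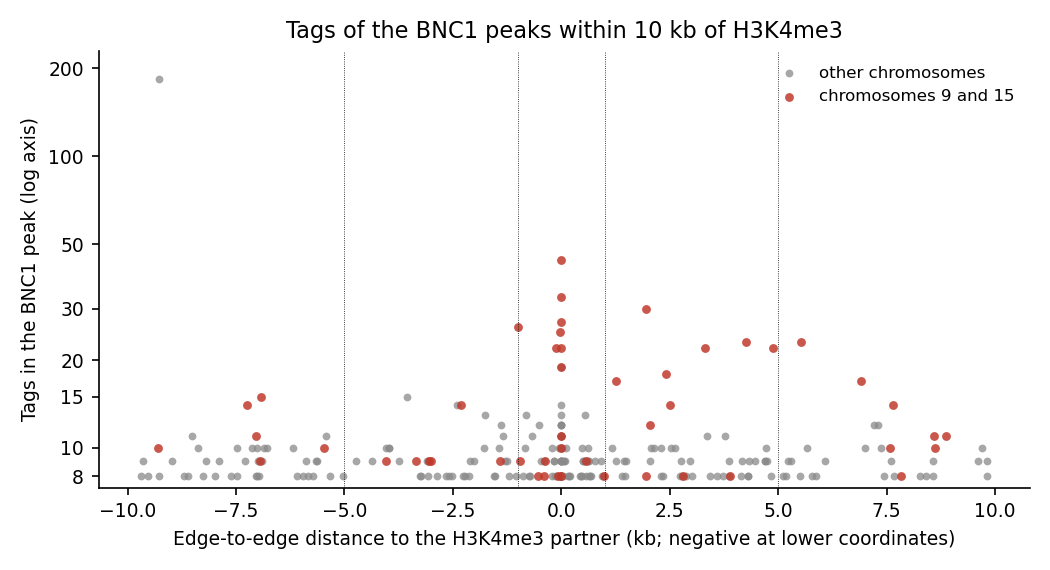
Tags in each of the 254 BNC1 peaks (log axis) against the edge-to-edge distance to the H3K4me3 partner (kb, negative at lower coordinates), with overlapping peaks at 0 and dotted lines at the band limits of 1 and 5 kb. Red points are chromosomes 9 and 15, which hold 16 of the 18 peaks with more than 15 tags. The single grey point near the top is the 184-tag peak on chromosome 19.

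The medians of the other measures of the BNC1 peaks hardly changed with distance. Median width was 156 bp for overlapping peaks, 152 bp at 1 to 1000 bp and 152 bp beyond 10 kb. Median fold enrichment was 8.37 for members and for distant peaks alike, a value that many peaks share. The tails differed more. The upper quartile of width was 187.5 bp for overlapping and 162 bp for distant peaks, and a fold enrichment under 6 was found in 5 of 36 overlapping peaks (13.9%), 7.87% of members, 4.43% of distant peaks and 4.77% of all. The caller's p-value, listed as 10 × −log10, had medians of 43.7 and 43.6. The background index was higher for members, with a median of 7.03 against 6.59 for distant peaks, and 157 of 254 members (61.8%) exceeded the median of the distant peaks on their own chromosome, beside 50.6% of all BNC1 peaks. The peaks at 10 to 20 kb were close to the members in this too, with 83 of 140 (59.3%). The index is calculated from tags, width and fold enrichment, so its rise is not independent of the tags. More tags near H3K4me3 did not come with a higher median fold enrichment, and the part of the background was not tested.

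The most tag-rich peaks next to H3K4me3, but not touching it, were again mostly on chromosome 15. On that chromosome, a BNC1 peak from 61815222 to 61815577 held 25 tags 38 bp from a 74-tag partner. Another, from 34371999 to 34372379, held 22 tags 115 bp from a 67-tag partner. Their fold enrichments of 5.38 and 4.61 were below the list median. The next at 1 to 1000 bp, on chromosome 19 from 7055511 to 7055677 and on chromosome 8 from 81729886 to 81730086, each held 13 tags at 7.63-fold.

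At 1 to 5 kb the 5 highest, the last of them tied, were also of low fold enrichment. They lay on chromosome 15 from 58706064 to 58706546 (30 tags, 4.95-fold), from 56563561 to 56563914 (26 tags, 4.09-fold) and from 35981075 to 35981405 (23 tags, 6.14-fold). The tied peaks of 22 tags were one on the same chromosome, from 57870858 to 57871185 (5.58-fold), and one from 35079529 to 35079869 of chromosome 9 (5.43-fold). At 5 to 10 kb one peak stood apart from all others. It lay on chromosome 19 from 45724458 to 45724855, 9286 bp from a partner of 136 tags, and held 184 tags at 6.74-fold with a 10 × −log10 p of 140.11. Its background index of 68.6 compares with a median of 7.03 over the members. The following peaks in that band, on chromosome 15 from 64348838 to 64349175 and from 55396592 to 55396829 and on chromosome 9 from 36568427 to 36568682, held 23, 17 and 15 tags.

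Values of a BNC1 peak and its partner were related across the pairs. Over the 254 members, Spearman's rho was 0.525 between the background indices of BNC1 and H3K4me3, 0.374 between the fold enrichments and 0.311 between the tags. In the 36 overlapping pairs the values were 0.733, 0.610 and 0.445. Without chromosomes 9 and 15 the relation of tags was near 0, at 0.0917 over 205 members and 0.0866 over 28 overlapping pairs, whereas the fold enrichments kept 0.265 and 0.524 and the indices 0.387 and 0.640. Fold enrichment is a ratio over the caller's local background, and the index is calculated from fold enrichment, so both measures depend on that background. The control behind each list is not given. Whether a background common to the lists gave the relations of fold enrichments and indices was not tested. These relations therefore do not show that BNC1 and H3K4me3 signal rise together. Each pair shares its place in the genome, and all pairs share the same libraries. The values thus describe the lists, and no p-value is given.

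Finally, the members were counted by chromosome. Of the 16 chromosomes with at least 50 BNC1 peaks, 15 had more members than placement within 1 Mb would give, and chromosome 6 had fewer (1 member, 2.65 expected). The share of BNC1 peaks near H3K4me3 was highest on chromosome 15, at 26 of 166 or 15.7% (10.9 to 22.0%), beside 17.2 expected. Chromosome 8 had the most members, 33 of 286, beside 23.4 expected. Chromosome 11 had 21 members among 166 BNC1 peaks, 1.07 times the 19.6 expected, with 7 within 1 kb. It carries *Nf2*, which the study first proposes as a possible BNC1 target from ChIP-seq. Binding of BNC1 to its promoter is then reported from ChIP with quantitative PCR and luciferase assays. The count for the chromosome does not show whether any peak lies at *Nf2*. Chromosomes 18 and X had none, from 21 and 6 BNC1 peaks.

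**Figure D5:**
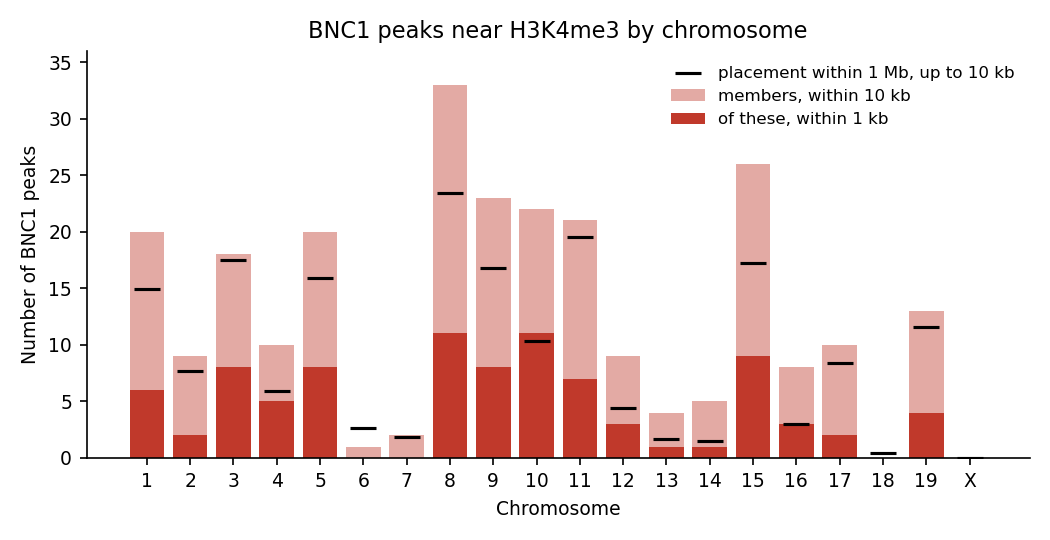
Number of BNC1 peaks within 10 kb of H3K4me3 on each chromosome (light bars), the number within 1 kb (dark bars) and the number expected within 10 kb from placement within 1 Mb (black marks). Bars exceed the marks on most chromosomes, and on chromosome 10 the peaks within 1 kb alone reach 11, above the 10.3 expected up to 10 kb.

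Chromosome 10 had the highest excess within 1 kb. Of its 22 members, 11 were that close, compared with 1.45 expected (7.61-fold), next to 7.41-fold from only 3 peaks on chromosome 16, and 4 overlapped, compared with 0.335. These 11 had 8 to 11 tags (median 8) and fold enrichments of 6.69 to 11.71. Their partners were ordinary H3K4me3 peaks of 287 to 546 bp and 28 to 63 tags, 2 of them clustered. This differs from chromosome 15, where the 9 members within 1 kb had 8 to 25 tags, partners of up to 453 tags, and 3.76 expected. Without chromosome 10 the excess over all other chromosomes was 3.55-fold for overlapping peaks and 2.36-fold at 1 to 1000 bp. Chromosome 10 was singled out after its values were seen, and its difference from the others was not tested.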

How the data were processed

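The deposited peak lists of the BNC1 and the H3K4me3 library were used as the authors made them, each called on 1 library. The submitters' processing notes name Bowtie2, MACS2 2.1.0 and the mm9 build, whereas the column names are those of MACS version 1. The control library and the settings are not given in the sources used here. Per the file headers, tags are counts with no normalization, fold enrichment is a linear ratio over the caller's background, the false discovery rate is in percent, and p-values are a score of 10 × −log10.

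Distances, placement and partner shares used numpy 2.4.6 and scipy 1.17.1, tables were read with pandas 2.3.3, and plots were drawn with matplotlib 3.10.9 under Python 3.11.15. The interval arithmetic was tested on simulated data. Placement took every start within 1 Mb inside the span of listed peaks, so assembly gaps were not removed. At equal distances the partner with the larger overlap, then more tags, was taken. Regions named are the 4 with most tags per band, the 4 with the most tag-rich partners, the 4 highest on a partner's summit, and those next to the limit, with peaks tied for the last place added after their values were seen. Members, bands and measures were chosen with earlier results of these data known. Alternatives were other distances, placement windows, p-value and tag limits, merged peaks and chromosomes left out. Coordinates were not converted to GRCm38.p6, the build of the available gene table.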

Additional observations from a re-analysis of the deposited data

How the results depend on the processing

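Of 69 recomputed values, 60 stayed within the interval of the main value or, for counts, within 1.5 times of it, and 9 moved further. None reversed, but only ratios over placement whose main interval excluded 1 could be counted as reversed. The number of BNC1 peaks within 10 kb of H3K4me3 was 254 and fell to 45 for the 384 BNC1 peaks at or past the H3K4me3 p-value floor, and to 147 with the 5052 H3K4me3 peaks of at least the median tags, both of which leave fewer peaks by construction. The fold over placement, 1.38, was 1.22 (1.08 to 1.36) with placement within 100 kb and 1.29 to 1.498 in the other settings. For overlapping peaks alone it was 6.12 (3.43 to 10.8, 11 peaks) past the p-value floor and 2.37 (1.46 to 3.83, 16 peaks) with the tag-rich H3K4me3 peaks. It was 3.53 to 4.42 otherwise, and the causes were not tested. At 1 to 5 kb the interval excluded 1 with placement within 5 Mb (1.27, 1.04 to 1.56) and over the chromosome (1.27, 1.03 to 1.55), but included it in the others. At 5 to 10 kb the ratio was 0.826 to 1.07, on both sides of 1.

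The share of clustered partners, 27.2%, depended on what counts as a cluster. It was 41.3% with another H3K4me3 peak within 20 kb (62.5% of the list) and 7.87% after merging H3K4me3 peaks within 1 kb (15.8% of the merged list). The share of members with more than 10 tags went from 20.5 to 12.7%, and the share with a partner above the median fold enrichment from 59.8 to 65.9%, without chromosomes 9 and 15, a setting chosen after seeing the data, as were leaving out chromosome 10 and the alternatives for single bands. Shares by partner width and tags stayed between 47.8 and 54.7%. No paired analysis was possible because each antibody has 1 library. The 8-tag floor of the BNC1 list limits what any single peak shows.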

Other observations

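The 20 BNC1 peaks and 10 H3K4me3 peaks on sequences other than chromosomes 1 to 19 and X, 7 of the BNC1 peaks being mitochondrial, were not part of the comparisons. None of these BNC1 peaks was within 10 kb of an H3K4me3 peak.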
